A study of Arabidopsis thaliana with 8 samples.

Results

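The genes described here are those that rose strongly in both estradiol-inducible lines of the study, SND1XVE and VND7XVE, apart from a list of genes that the rule sets aside. Signals were put on the log2(signal + 16) scale, on which an effect is the mean of the 2 estradiol arrays minus that of the 2 control arrays of a line. A probe set is the group of array probes that reads 1 transcript, and members were chosen by these measured effects, as the probe sets with an effect of at least 2 in both lines and a signal of at least 100 with estradiol on all 4 arrays. Leaving aside the array controls, 22746 probe sets were on the array and 87 met these thresholds. Of these, 15 read genes on a list of 16 that was set aside, and 72 remained. Of the 72, 40 name 1 gene and 32 do not, being either not listed or listed with several genes in the annotation used here. None of the 72 is of the kind marked as shared between transcripts.

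The samples were Arabidopsis thaliana protoplasts, which are plant cells freed of their walls, in 4 groups of 2 arrays. VND7XVE cells received cycloheximide with estradiol or, as controls, cycloheximide alone, and SND1XVE cells were treated in the same 2 ways. Cycloheximide, a blocker of protein synthesis, was thus present in all groups, and the stated purpose was to find direct targets of each factor. The labels do not describe the XVE construct, its promoter, the strain, the doses, the times or the tissue of the cells. The groups hold no cells that lack both factors, so a response to estradiol itself cannot be told apart from a response to SND1 or VND7. Nothing in the labels says that replicates were separate cultures, so p-values cover no more than array-to-array spread, possibly of technical origin, and 2 arrays per group limit the precision.

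SND1 and VND7 are transcription factors of the NAC family. SND1 turns on secondary wall formation in fibres, and VND7 does so in the vessels of xylem, whose cells thicken their walls with cellulose, xylan and lignin and then die and clear their contents. Related NAC factors of this kind are known to share many target genes through a common binding element, and VND7 is known also to raise genes of the programmed death of vessel cells. Cells that build a secondary wall need secreted oxidases and peroxidases to polymerise lignin, and dying vessel cells need proteases and other hydrolases.

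Replicate arrays correlated at 0.982 to 0.988 over the 14768 probe sets that passed a filter on low signal. Array medians were 108.3 to 109.9 signal units on the estradiol arrays and 99.0 to 102.0 on the controls, and the actin 3' to 5' ratio, a sign of RNA integrity, was 4.64 and 3.98 with estradiol, against 3.72 and 4.16 in controls, in VND7XVE, and 3.3 and 3.21 with estradiol, against 2.8 and 2.87 in controls, in SND1XVE. The part of these shifts in the results was not tested, apart from rescaling the arrays. Centring each array on its median left 63 of the 72 above the thresholds, and quantile normalization left 66. Of 23 marker loci of 7 cell types 5 were named on the array. The photosynthesis genes RCA and LHCB4.1 were high on every array, at 2191.6 to 2762.9 and 2559.4 to 5600.0, and neither passed the threshold for a change in either line. The guard cell gene FMA had 49.1 to 118.3 signal units, the trichome gene TRY 5.7 to 68.0, and CLE41, of a peptide made in phloem that acts on procambium, 96.5 to 240.9. In the estradiol comparisons TRY alone of these 5 was called, lower with estradiol in SND1XVE (-1.76, limma, adjusted p = 0.0157), and not without SND1XVE control replicate 1 (0.0505) or 2 (0.0903) or SND1XVE estradiol replicate 1 (0.0833). Markers of the phloem, the root cap and dividing cells were not analysed here.

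Across the 72 probe sets the median signal was 983.3 and 992.6 on the VND7XVE estradiol arrays, against 63.5 and 59.4 on their controls. It was 452.6 and 483.2 on the SND1XVE estradiol arrays, against 34.6 and 40.8 on theirs. Both estradiol arrays lay above both controls for all 72 in VND7XVE and in SND1XVE, a pattern seen in 25.1% and 27.9% of all tested probe sets. All 72 passed the threshold as rises in each line (limma, Benjamini-Hochberg adjusted p under 0.05), which 8.15% and 9.37% of all tested probe sets did. The rule chose them by these same effects, so nothing is read from either count. In bulk RNA a rise within cells cannot be told apart from a larger share of cells that carry the transcript.

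The median effect of the 72 was 3.56 in VND7XVE and 2.86 in SND1XVE, with ranges of 2.00 to 7.91 and 2.00 to 5.65. For comparison the medians of all tested probe sets were -0.032 and 0.015. Effects reached 3 in both lines for 25 of the 72 and 4 in both for 9. Without estradiol all 4 control signals were under 100 for 42 of the 72 and all 4 were at 100 or more for 12. The medians of the control arrays were themselves 99.0 to 102.0, and a floor on the effect favours low controls. Nothing is therefore read from these 2 counts. Replicates differed by a median of 0.11 on the log2 scale on estradiol arrays and 0.39 on control arrays, where the largest gap was 1.92. Because 16 was added to every signal, effects of genes with dim controls are understated, and the number that met the thresholds was 92, all 72 among them, with 1 added in place of 16 and 40 with 64 added. Across the 72 the effects of the lines correlated at Pearson's r = 0.50, given as a description over points that share the same arrays and a common floor.

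**Figure D1:**
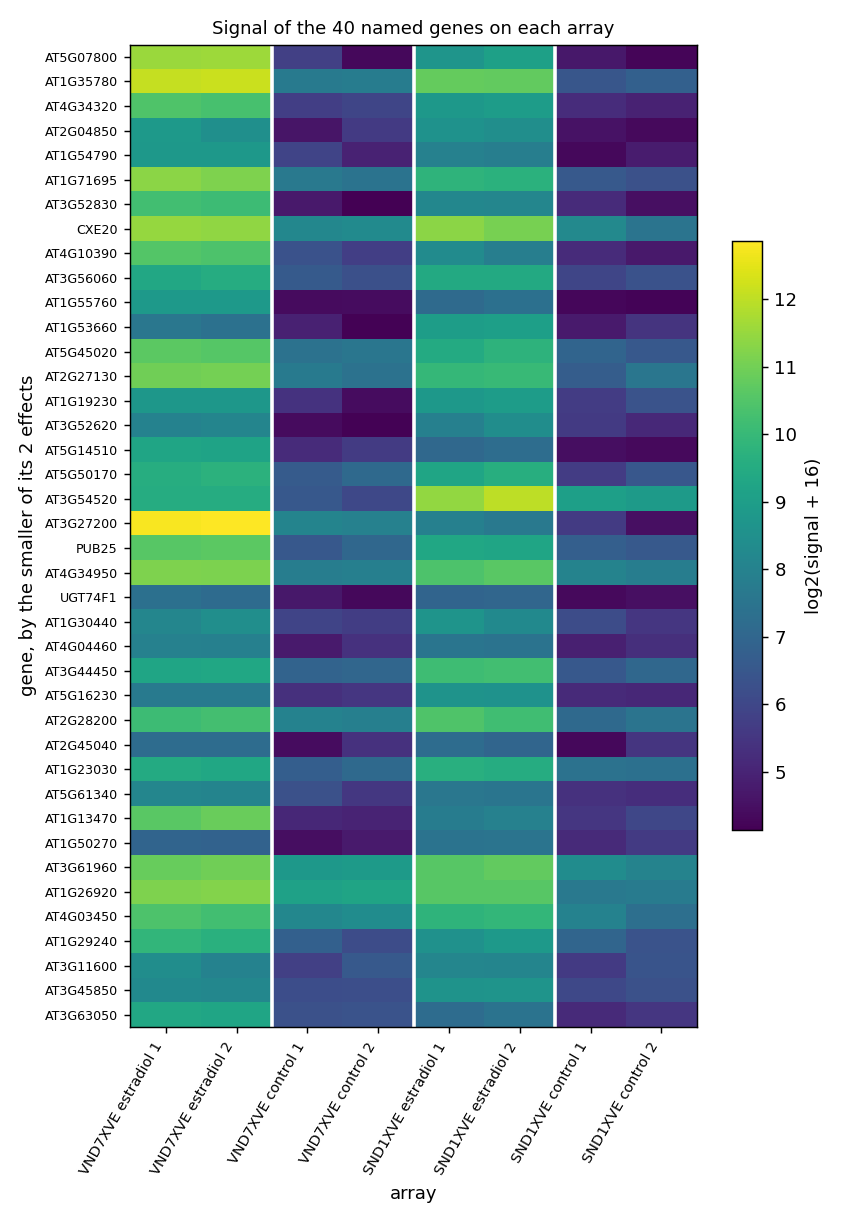
Signals of the 40 named genes, as log2(signal + 16), with 1 column per array and 1 row per gene, ordered by the smaller of the gene's 2 effects. In every row both estradiol columns of a line are brighter than both control columns of that line.

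Genes whose products act at the wall or outside the cell formed the first role group, with 6 members and median effects of 3.62 in VND7XVE and 3.09 in SND1XVE. Roles were assigned from general knowledge after the members were known. AT1G71695 (PRX12) encodes a class III peroxidase, an enzyme family that oxidises lignin precursors in the wall. Its signals were 2586.5 and 2263.2 on the VND7XVE estradiol arrays, against 184.9 and 159.0 on their controls, and 873.1 and 825.5 on the SND1XVE estradiol arrays, against 77.9 and 61.9 on theirs. No estradiol array overlapped a control array, and the effects were 3.70 ± 0.14 in VND7XVE and 3.34 ± 0.14 in SND1XVE (log2 ± SE, n = 2 arrays per group, as for all effects below). AT1G19230 (RBOHE) encodes an NADPH oxidase, which makes the superoxide from which the peroxide used by peroxidases arises. It had 413.0 and 410.9 in VND7XVE cells with estradiol, against 26.8 and 5.4 in controls, and 427.9 and 478.6 in SND1XVE cells with estradiol, against 35.7 and 67.0 in controls. The levels with estradiol were thus close in both lines, and the effects were 3.82 ± 0.29 and 2.84 ± 0.29.

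AT3G27200 belongs to the cupredoxins, small copper proteins of the cell surface. Its signals were 6935.0 and 7409.8 with estradiol, against 254.1 and 232.2 in controls, in VND7XVE. In SND1XVE they were 226.4 and 187.0 with estradiol, against 34.5 and 6.2 in controls. The SND1XVE estradiol arrays thus lay just below the VND7XVE controls, although the effect was 2.73 ± 0.26 there and 4.79 ± 0.26 in VND7XVE. AT2G04850 encodes a membrane protein with a cytochrome b561 and a DOMON domain, a combination linked to electron transfer across membranes. It had 436.4 and 338.9 in VND7XVE cells with estradiol, against 8.4 and 33.0 in controls, and 362.6 and 335.1 in SND1XVE cells with estradiol, against 7.6 and 4.6 in controls, with effects of 3.53 ± 0.31 and 4.05 ± 0.31.

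The lipid transfer protein family gene AT2G27130 and the GDSL lipase family gene AT1G54790 complete this group. AT2G27130 signals were 1982.1 and 2091.8 on VND7XVE estradiol arrays, against 194.1 and 154.7 on controls, and 957.7 and 1022.6 on SND1XVE estradiol arrays, against 87.1 and 172.3 on controls. The treatments did not overlap in either line, and the effects were 3.44 ± 0.21 and 2.85 ± 0.21. For AT1G54790 they were 423.6 and 419.6 with estradiol, against 44.1 and 14.9 in controls, in VND7XVE, and 236.6 and 216.5 with estradiol, against 3.7 and 11.7 in controls, in SND1XVE. Its effects, 3.34 ± 0.31 and 3.37 ± 0.31, were the closest pair of the group. Of the 6, the difference between the lines was called for AT3G27200 alone. For AT1G19230 it was 0.98 ± 0.42 (limma, adjusted p = 0.295), and it passed the threshold without VND7XVE control replicate 1 (1.48, adjusted p = 0.0471). For AT2G27130 it was 0.59 ± 0.29 (adjusted p = 0.401), and it passed without SND1XVE control replicate 1 (1.02, adjusted p = 0.0121).

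Genes of protein turnover and autophagy formed a second group of 6, with median effects of 2.66 in VND7XVE and 2.42 in SND1XVE. AT4G04460 (PASPA3) encodes an aspartic protease known as a marker of developmental cell death in plants. Its signals were 232.5 and 227.8 in VND7XVE cells with estradiol, against 11.4 and 25.4 in controls, and 166.8 and 158.5 in SND1XVE cells with estradiol, against 13.5 and 23.5 in controls. The groups did not overlap in either line, with effects of 2.87 ± 0.30 and 2.39 ± 0.30. AT2G45040 encodes a matrix metalloproteinase, a protease that acts outside the cell. It had 131.1 and 134.3 with estradiol, against 5.3 and 25.8 in controls, in VND7XVE, and 133.5 and 109.9 with estradiol, against 4.0 and 28.8 in controls, in SND1XVE. Its control replicates differed several-fold in both lines, and its effects of 2.32 ± 0.42 and 2.20 ± 0.42 carried the largest standard error of the 40 genes.

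AT3G61960 (ATG1a) encodes a protein kinase that starts autophagy, the delivery of cell contents to the vacuole. Its signals were 1813.7 and 1998.6 in VND7XVE cells with estradiol, against 422.3 and 451.8 in controls, and 1511.6 and 1732.9 in SND1XVE cells with estradiol, against 318.7 and 246.8 in controls. It was well measured without estradiol, with a mean of 359.9 over the 4 control arrays, and its effects were 2.08 ± 0.13 and 2.46 ± 0.13. PUB25 and AT1G23030 (PUB11) encode U-box ubiquitin ligases, which mark proteins for degradation, and AT1G55760 encodes a BTB domain protein, a type that often recruits targets to such ligases.

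PUB25 had 1525.5 and 1619.4 in VND7XVE cells with estradiol, against 77.2 and 115.6 in controls, and 634.5 and 593.4 in SND1XVE cells with estradiol, against 94.0 and 79.4 in controls. The controls of the lines were alike while the estradiol arrays were brighter in VND7XVE, with effects of 3.84 ± 0.17 and 2.62 ± 0.17. AT1G23030 had 687.8 and 621.0 with estradiol, against 90.3 and 124.0 in controls, in VND7XVE, and 770.9 and 726.4 with estradiol, against 156.3 and 147.4 in controls, in SND1XVE. Its effects, 2.46 ± 0.16 and 2.19 ± 0.16, lay near the floor of the rule. AT1G55760 was dim on all control arrays, with 5.1 and 5.6 in VND7XVE controls and 3.3 and 2.6 in SND1XVE controls. Its estradiol signals were 443.1 and 438.9 in VND7XVE and 124.6 and 146.8 in SND1XVE. The effects were 4.42 ± 0.30 and 3.0 ± 0.30, and their difference of 1.42 ± 0.43 (limma, adjusted p = 0.0994) passed the threshold with 64 added to the signals (1.29, adjusted p = 0.0024) and without the limma trend (adjusted p = 0.00988). With a pseudocount of 1 the difference was not called.

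**Figure D2:**
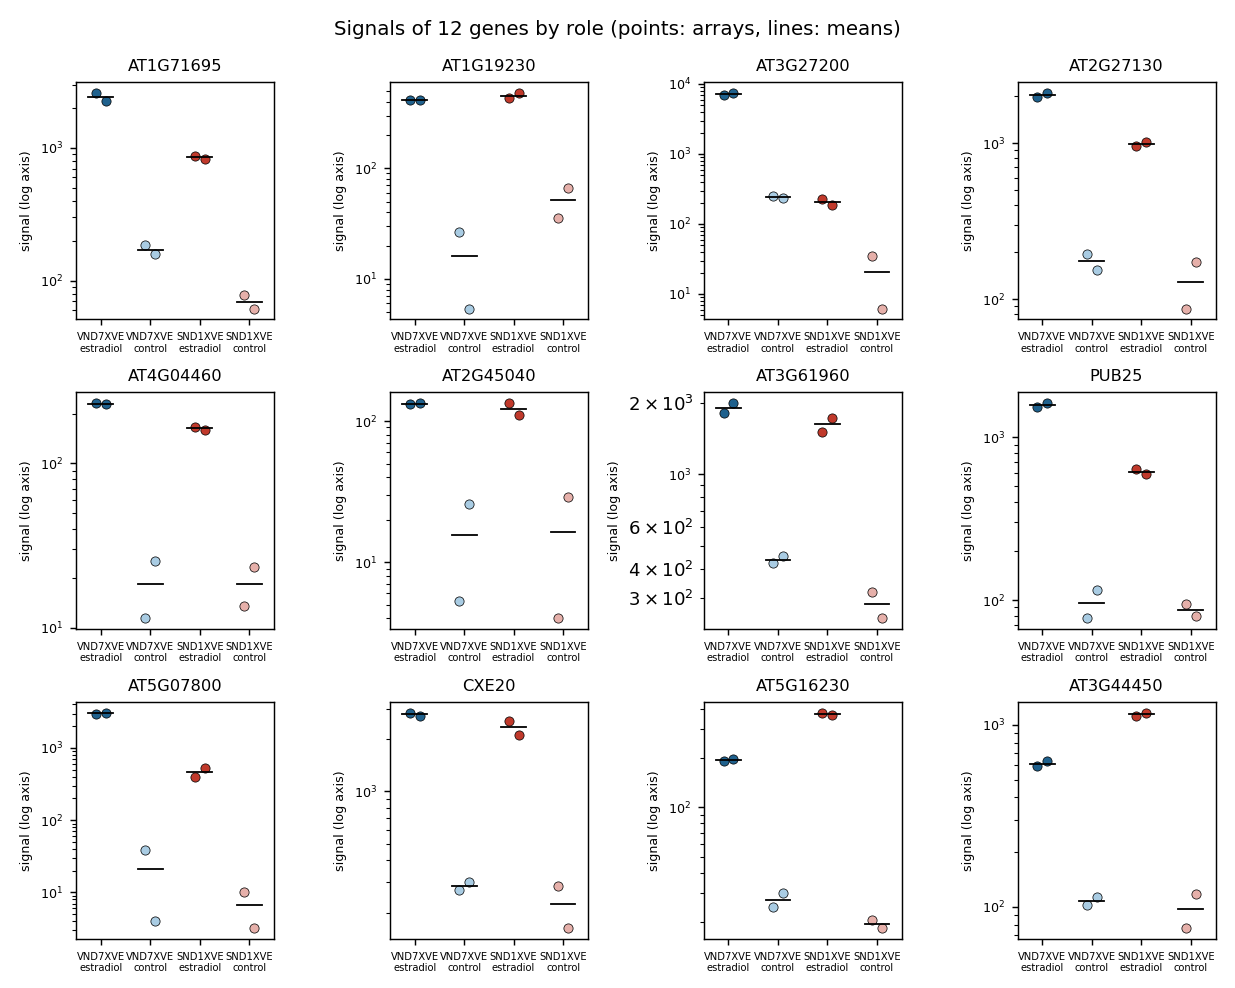
Signals of 12 genes on a log axis, 1 panel per gene, with a point for each array and a line at the mean of its group. In every panel both estradiol points of a line lie above both of its control points, and the gap between the lines is widest for AT3G27200, at 6935.0 and 7409.8 against 226.4 and 187.0 with estradiol.

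Enzymes of small molecules and lipids formed the next group of 6, with median effects of 3.06 in VND7XVE and 3.32 in SND1XVE. AT5G07800, of the flavin-containing monooxygenases, which oxidise nitrogen and sulphur in small molecules, ranked first of the 40 named genes by the smaller of its effects. Its signals were 2960.0 and 3071.7 in VND7XVE cells with estradiol, against 38.7 and 4.0 in controls, and 398.4 and 531.6 in SND1XVE cells with estradiol, against 10 and 3.2 in controls. All 4 control signals were dim and the VND7XVE control replicates differed widely, with effects of 6.52 ± 0.33 and 4.41 ± 0.33. CXE20 encodes a carboxylesterase and was bright before estradiol. It had 2840.4 and 2735.4 with estradiol, against 269.6 and 300.6 in controls, in VND7XVE, and 2559.5 and 2128.6 with estradiol, against 283.5 and 162.8 in controls, in SND1XVE, and its effects of 3.22 ± 0.18 and 3.34 ± 0.18 differed by -0.12 ± 0.25 (limma, adjusted p = 0.902).

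UGT74F1 encodes a glucosyltransferase of the defence hormone salicylic acid. It had 146.3 and 129.6 in VND7XVE cells with estradiol, against 9.6 and 4.1 in controls, and 107.3 and 112.4 in SND1XVE cells with estradiol, against 4.3 and 6.4 in controls. Its estradiol signals were the closest of this group to the minimum of 100, and its effects were 2.76 ± 0.37 and 2.56 ± 0.37. AT5G45020 belongs to the glutathione transferases, enzymes of detoxification, and had 1601.5 and 1482.7 with estradiol, against 157.2 and 173.7 in controls, in VND7XVE, and 692.8 and 861.9 with estradiol, against 106.9 and 75.6 in controls, in SND1XVE. Both its estradiol and its control signals were higher in VND7XVE, and the effects were 3.10 ± 0.16 and 2.89 ± 0.16.

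AT3G56060, of the glucose-methanol-choline oxidoreductases, had 636.9 and 726.9 in VND7XVE cells with estradiol, against 80.3 and 60.9 in controls. In SND1XVE cells it had 682.2 and 680.6 with estradiol, against 45.5 and 65.0 in controls. The estradiol levels of the lines overlapped, and the effects were 3.02 ± 0.18 and 3.30 ± 0.18. AT5G16230 belongs to the stearoyl-acyl carrier protein desaturases, which put the first double bond into plastid fatty acids. Its signals were 193.0 and 197.0 with estradiol, against 24.5 and 29.9 in controls, in VND7XVE, and 377.6 and 366.7 with estradiol, against 20.4 and 18.3 in controls, in SND1XVE. Estradiol signals were higher in SND1XVE, with effects of 2.29 ± 0.24 in VND7XVE and 3.46 ± 0.24 in SND1XVE. The difference of -1.17 ± 0.34 missed the threshold (limma, adjusted p = 0.0821) and passed it with 64 added (-0.88, adjusted p = 0.0284) and without the limma trend (adjusted p = 0.0199).

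The fourth group held 10 genes of transport, signalling, the cytoskeleton and gene regulation, with median effects of 2.62 in VND7XVE and 2.88 in SND1XVE. AT4G34950, of the major facilitator superfamily of membrane transporters, had 2267.1 and 2253.6 in VND7XVE cells with estradiol, against 208.9 and 220.2 in controls, and 1342.3 and 1549.0 in SND1XVE cells with estradiol, against 247.4 and 210.9 in controls. Its controls overlapped between the lines, and its effects were 3.30 ± 0.13 and 2.58 ± 0.13. AT1G53660, of a nucleotide and sugar transporter family, had 175.5 and 153.0 with estradiol, against 14.6 and 2.2 in controls, in VND7XVE, and 489.9 and 518.4 with estradiol, against 11.2 and 27.4 in controls, in SND1XVE. It was brighter in SND1XVE cells with estradiol, with effects of 2.93 ± 0.31 in VND7XVE and 3.92 ± 0.31 in SND1XVE, a difference of -0.99 ± 0.44 (limma, adjusted p = 0.331) that passed the threshold with 64 added (-1.12, adjusted p = 0.0101). With a pseudocount of 1 this difference was not called.

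AT4G10390 encodes a protein of the kinase superfamily and had 1447.4 and 1369.7 in VND7XVE cells with estradiol, against 63.6 and 38.0 in controls. Its SND1XVE signals were 309.3 and 214.9 with estradiol, against 20.5 and 10.4 in controls, so that its signals were higher in VND7XVE under either treatment. AT5G50170, with C2 and GRAM domains that bind membranes, had 736.9 and 830.9 with estradiol, against 84.3 and 123.5 in controls, in VND7XVE, and 600.8 and 758.4 with estradiol, against 34.9 and 74.5 in controls, in SND1XVE. AT5G14510, of the ARM repeat proteins, had 595.3 and 572.5 with estradiol, against 21.2 and 34.6 in controls, in VND7XVE, and 119.5 and 135.8 with estradiol, against 6.0 and 4.5 in controls, in SND1XVE. The effects in VND7XVE and SND1XVE were 4.44 ± 0.24 and 3.14 ± 0.24 for AT4G10390, 2.76 ± 0.24 and 3.35 ± 0.24 for AT5G50170, and 3.79 ± 0.27 and 2.76 ± 0.27 for AT5G14510. The difference of AT5G14510, 1.03 ± 0.38, missed the threshold (limma, adjusted p = 0.204) and passed it with 64 added (1.35, adjusted p = 0.00118). Its size depended on the constant added, as both SND1XVE controls were under 16, and it was not called with a pseudocount of 1.

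AT1G30440, of the NPH3 family that acts in responses to light and auxin, had 267.4 and 332.0 in VND7XVE cells with estradiol, against 44.4 and 36.1 in controls, and 388.6 and 295.6 in SND1XVE cells with estradiol, against 54.6 and 29.4 in controls. AT3G44450 (BIC2), an inhibitor of the blue light receptors called cryptochromes, had 592.7 and 632.8 with estradiol, against 103.0 and 113.3 in controls, in VND7XVE, and 1116.7 and 1167.2 with estradiol, against 76.4 and 117.5 in controls, in SND1XVE. Its control levels overlapped between the lines and its estradiol levels were higher in SND1XVE. Effects in VND7XVE and SND1XVE were 2.48 ± 0.25 and 2.65 ± 0.25 for AT1G30440 and 2.34 ± 0.17 and 3.38 ± 0.17 for AT3G44450.

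The kinesin-5 family gene AT3G45850, whose relatives move along microtubules in dividing cells, had 290.3 and 271.0 in VND7XVE cells with estradiol, against 57.9 and 58.0 in controls, and 379.1 and 383.7 in SND1XVE cells with estradiol, against 48.6 and 61.9 in controls. AT2G28200 encodes a C2H2 zinc finger protein, a type of transcription factor, and had 1104.8 and 1213.7 with estradiol, against 237.2 and 223.1 in controls, in VND7XVE, and 1375.3 and 1151.6 with estradiol, against 122.9 and 163.4 in controls, in SND1XVE. Its estradiol levels overlapped between the lines while its controls were higher in VND7XVE. The effects of AT2G28200, 2.25 ± 0.15 and 3.01 ± 0.15, differed by -0.76 ± 0.21 (limma, adjusted p = 0.0673), which was called (-0.94, adjusted p = 0.0215) when SND1XVE control replicate 2 was left out. AT3G11600 (GIR2), known as a repressor that works with the root hair regulator GL2, had 327.0 and 241.4 with estradiol, against 39.7 and 79.8 in controls, in VND7XVE, and 265.7 and 260.9 with estradiol, against 33.2 and 67.4 in controls, in SND1XVE. It and AT3G45850 lay at the floor of the rule in VND7XVE, with effects of 2.02 ± 0.29 and 2.00 ± 0.19, against 2.12 ± 0.29 and 2.49 ± 0.19 in SND1XVE.

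No role is given here for the other 12 named genes, whose median effects were 3.28 in VND7XVE and 2.5 in SND1XVE. AT1G35780 had 4386.9 and 4508.0 in VND7XVE cells with estradiol, against 193.3 and 208.5 in controls, and 1763.3 and 1739.5 in SND1XVE cells with estradiol, against 72.8 and 96.0 in controls. AT4G34320 had 1386.2 and 1255.3 with estradiol, against 37.8 and 45.7 in controls, in VND7XVE, and 424.3 and 481.9 with estradiol, against 21.5 and 15.3 in controls, in SND1XVE. Their effects were among the 12 largest of the named genes by the smaller line, with 4.36 ± 0.13 and 4.15 ± 0.13 for AT1G35780 and 4.53 ± 0.19 and 3.77 ± 0.19 for AT4G34320. The difference of AT4G34320, 0.76 ± 0.26, missed the threshold (limma, adjusted p = 0.17) and passed it with 64 added (1.06, adjusted p = 0.00267). With a pseudocount of 1 it was not called.

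AT1G26920 had 2315.6 and 2424.9 in VND7XVE cells with estradiol, against 536.6 and 588.3 in controls, and 1536.0 and 1531.3 in SND1XVE cells with estradiol, against 183.8 and 200.9 in controls. Its control signals averaged 377.4 over 4 arrays, and those of AT3G54520 averaged 274.3. Signals of different probe sets are not compared as amounts of transcript. For AT3G54520 the signals were 730.2 and 727.9 with estradiol, against 76.1 and 49.6 in controls, in VND7XVE, and 2752.5 and 4094.2 with estradiol, against 518.9 and 452.5 in controls, in SND1XVE. Its SND1XVE controls were not far below its VND7XVE estradiol arrays, while its effects were 3.26 ± 0.18 and 2.75 ± 0.18. AT3G52830 was dim in controls, with 10.5 and 1.5 in VND7XVE and 21.2 and 6.6 in SND1XVE.

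The smaller effects of the remaining 8 genes without a role here lay between 2.00 and 3.30. AT1G13470 and AT3G52830 are described with the differences between the lines. AT3G52620, AT5G61340, AT1G50270, AT4G03450, AT1G29240 and AT3G63050 had effects of 3.77, 2.15, 2.30, 2.05, 3.30 and 3.01 in VND7XVE. In SND1XVE the same 6 had 2.81, 2.24, 2.08, 2.18, 2.03 and 2.00. AT1G50270 only just met the signal minimum, with 106.0 and 100 in VND7XVE cells with estradiol, against 5.8 and 10.9 in controls. The named members at the edge of the effect threshold were AT3G63050 with 2.00 in SND1XVE, AT3G45850 with 2.00 in VND7XVE and AT3G11600 with 2.02 in VND7XVE. Just outside among probe sets that name a gene were IQD31 with 1.96 in VND7XVE and 2.59 in SND1XVE, AT1G79030 with 2.76 and 1.96, and AT4G19460 with 1.93 and 1.97. AT1G70550 met both effects, 5.82 and 2.40, but not the signal minimum, with 93.4 and 68.6 on the SND1XVE estradiol arrays.

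The rule sets a floor for both effects and no limit on their difference, but the difference is computed from those same effects and arrays. The floors on effect and signal also restrict which differences can occur, so the shares below are given as a description. The response was larger in VND7XVE for 17 of the 72, or 23.6%, and larger in SND1XVE for 4, or 5.56% (limma test of the difference, adjusted over all 14768 probe sets). Over all tested probe sets, most of which have effects near 0, the shares were 1.97% and 1.09%. The remaining 51 had no call, which does not show that the lines responded alike. Taken without a test, the VND7XVE effect was the larger one for 47 of the 72 and the SND1XVE effect for 25, with a median difference of 0.32. Over all 14768 tested probe sets the numbers were 6686 and 8082, with a median difference of -0.034. With 64 added to signals, the calls larger in VND7XVE numbered 24 and those larger in SND1XVE 7. The 17 were 11 without SND1XVE estradiol replicate 1, 10 without either VND7XVE estradiol replicate and 6 with a pseudocount of 1. The 4 were 2 without SND1XVE control replicate 1 or either SND1XVE estradiol replicate, and 1 without either VND7XVE estradiol replicate.

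**Figure D3:**
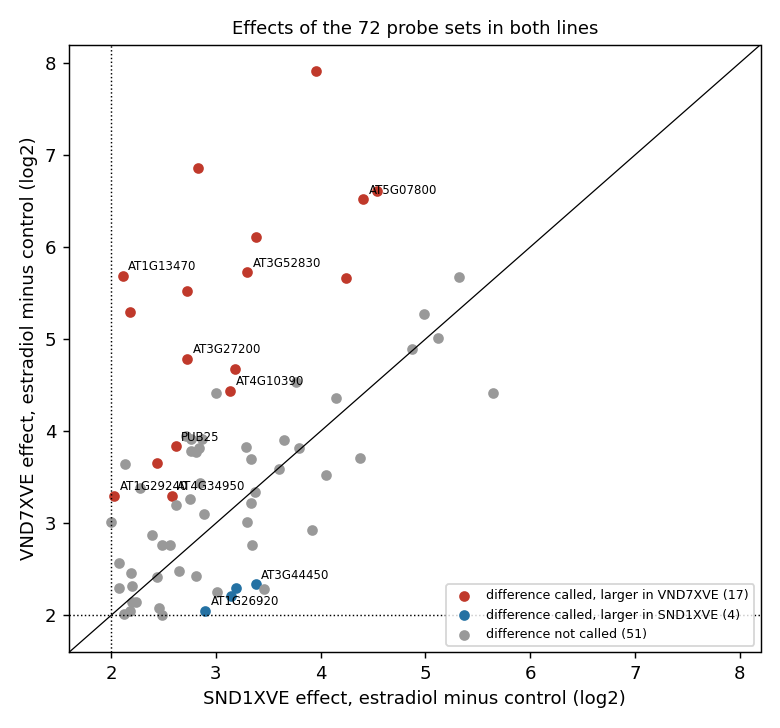
Effects on the log2 scale in SND1XVE (horizontal axis) and VND7XVE (vertical axis), with 1 point per probe set, dotted lines at the rule's floor of 2 and a solid line of equal effects. The 17 probe sets called larger in VND7XVE lie above the line and reach 7.91, and the 4 called larger in SND1XVE lie below it.

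AT1G13470 differed the most between the lines among named genes. Its signals were 1566.9 and 1854.0 in VND7XVE cells with estradiol, against 18.4 and 16.1 in controls, and 203.8 and 231.7 in SND1XVE cells with estradiol, against 29.8 and 48.1 in controls. This was a 51.8-fold rise in VND7XVE and a 4.31-fold rise in SND1XVE on signals with 16 added, and the difference of 3.59 ± 0.30 passed the threshold (limma, adjusted p = 1.46e-06) under all alternatives. AT3G52830 had 1168.2 and 1086.4 with estradiol, against 10.5 and 1.5 in controls, in VND7XVE, and 272.9 and 265.4 with estradiol, against 21.2 and 6.6 in controls, in SND1XVE. Its effects were 5.73 ± 0.28 and 3.30 ± 0.28, and the difference was 2.43 ± 0.39 (adjusted p = 0.00134), with the call lost at a pseudocount of 1 (3.34, adjusted p = 0.0635). For AT3G27200, the cupredoxin gene, the difference was 2.07 ± 0.36 (adjusted p = 0.00304), with the call lost at a pseudocount of 1 (1.18, adjusted p = 0.497) and without the limma trend (adjusted p = 0.132).

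The other calls in this direction depended on single arrays and on the processing. Without the limma trend the adjusted p was 0.221 for AT5G07800, 0.0879 for PUB25, 0.204 for AT4G10390, 0.24 for AT1G29240 and 0.151 for AT4G34950. With a pseudocount of 1 it was 0.521 for AT5G07800, 0.54 for AT4G10390, 0.0944 for AT1G29240 and 0.0504 for AT4G34950 (limma). After quantile normalization it was 0.0584 for AT4G10390 and 0.0607 for AT1G29240. AT5G07800, the flavin monooxygenase family gene, differed by 2.10 ± 0.47 (limma, adjusted p = 0.0178), and its call was lost without SND1XVE control replicate 1 (0.0699), SND1XVE estradiol replicate 1 (0.102), or VND7XVE estradiol replicate 1 (0.12) or 2 (0.118). PUB25, the ubiquitin ligase gene, differed by 1.22 ± 0.24 (adjusted p = 0.00714), a call lost without VND7XVE estradiol replicate 1 (0.0526) or 2 (0.068). The kinase family gene AT4G10390 differed by 1.30 ± 0.34 (adjusted p = 0.0491) and AT1G29240 by 1.27 ± 0.32 (adjusted p = 0.0418). Both of these calls were lost without any 1 array other than SND1XVE control replicate 2 and VND7XVE control replicate 1, with adjusted p of 0.0522 to 0.259 and 0.0717 to 0.238. The transporter gene AT4G34950 differed by 0.73 ± 0.18 (adjusted p = 0.0344), a call lost without any 1 array other than the replicates numbered 2 of both SND1XVE groups (0.0851 to 0.154).

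In the opposite direction 2 named genes were called. For AT3G44450 the call was lost without the filter (limma, adjusted p = 0.0995) and without the limma trend (adjusted p = 0.146). AT3G44450, the cryptochrome inhibitor gene, differed by -1.04 ± 0.24 (limma, adjusted p = 0.024), a call lost without any 1 array other than SND1XVE control replicate 2 (0.0549 to 0.141). AT1G26920 differed by -0.85 ± 0.16 (adjusted p = 0.00572), a call lost without VND7XVE estradiol replicate 1 (0.0512) and without the limma trend (0.0604). By role, differences were called larger in VND7XVE for 1 of 6 genes of the wall and apoplast, 1 of 6 of protein turnover, 1 of 6 enzymes, 2 of 10 in the transport and signalling group and 3 of the 12 without a role. They were called larger in SND1XVE for 1 of those 10 and 1 of those 12. Over all tested probe sets the shares were 1.97% and 1.09%, and nothing is read from counts this small. The difference of AT3G63050, 1.00 ± 0.31, missed the threshold (adjusted p = 0.109) but was called with SND1XVE control replicate 1 left out (1.18, adjusted p = 0.0442) and with 64 added (1.18, adjusted p = 0.00241). With a pseudocount of 1 it was not called.

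**Figure D4:**
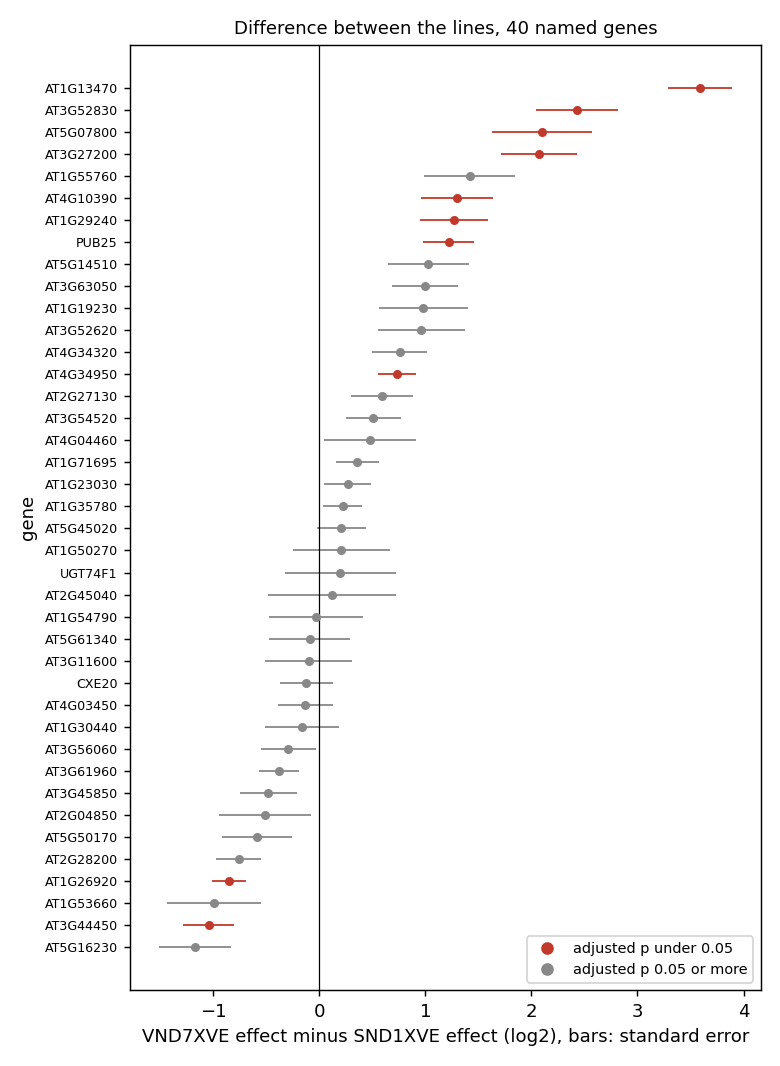
Difference between the lines for the 40 named genes, VND7XVE effect minus SND1XVE effect on the log2 scale, with the moderated standard error as bars. The 10 genes in red passed the threshold, 8 of them above 0 with AT1G13470 at 3.59 and 2 below 0 with AT3G44450 at -1.04.

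Levels without estradiol also differed between the lines. Control signals were called higher in VND7XVE for 25 of the 72, or 34.7%, against 13.7% of all tested probe sets, and higher in SND1XVE for 9, or 12.5%, against 13.8% (limma, adjusted p under 0.05). The rule used the control arrays within each line's effect, so the control levels of the 72 are not independent of how they were chosen. The share higher in VND7XVE was above that of all tested probe sets, but no test was made of it and nothing is read from it. The 9 higher in SND1XVE were 4 without the filter, 4 with 64 added and 5 with the replicate number as a block. Line and any difference in the handling of its cells cannot be told apart.

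Some of the cell type marker genes also had controls that differed between the lines. Of the 5 tested, 1 was higher in VND7XVE controls and 1 in SND1XVE controls, and the other 3 were not called. Over all tested probe sets the shares were 13.7% and 13.8%, and with 5 genes no general shift is read from these counts. The photosynthesis gene LHCB4.1 had 5600.0 and 5473.7 in VND7XVE controls, against 2663.5 and 2713.3 in SND1XVE controls (1.04 ± 0.10, limma, adjusted p = 1.04e-06). CLE41 had 111.0 and 96.5 in VND7XVE controls, against 219.8 and 180.8 in SND1XVE controls (-0.85 ± 0.20, adjusted p = 0.00438). Both calls held under all alternatives run. RCA, FMA and TRY were not called, with 0.24, -0.60 and -0.22 (adjusted p = 0.0952, 0.167 and 0.78). The summed signal of the 5 was 8579.2 and 8461.4 in VND7XVE controls, against 5547.9 and 5248.4 in SND1XVE controls, and none was at 0. LHCB4.1 and RCA made up most of each sum, with means of 5536.85 and 2762.45 in VND7XVE controls and 2688.4 and 2340.75 in SND1XVE controls. The control means of CLE41, FMA and TRY were lower in VND7XVE, so the sum does not describe the markers as a set. The part of these marker differences in the control levels of the 72 was not tested.

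Among the 40 named genes 14 were called with higher controls in VND7XVE and 5 in SND1XVE, against 13.7% and 13.8% of all tested probe sets. Nothing is read from these counts. The cupredoxin gene AT3G27200 had the largest difference, with 254.1 and 232.2 in VND7XVE controls, against 34.5 and 6.2 in SND1XVE controls (2.95 ± 0.26, limma, adjusted p = 4.22e-07). AT1G26920 differed by 1.47 ± 0.11 (adjusted p = 1.21e-07), the peroxidase gene AT1G71695 by 1.13 ± 0.14 (adjusted p = 2.59e-05) and AT1G35780 by 1.12 ± 0.13 (adjusted p = 9.93e-06). In the other direction AT3G54520 had 76.1 and 49.6 in VND7XVE controls, against 518.9 and 452.5 in SND1XVE controls (-2.69 ± 0.18, adjusted p = 2.59e-08). The calls of these 5 genes held under all alternatives. Those of AT1G19230 and AT3G52620 were lost with the replicate number as a block (limma, adjusted p = 0.176 and 0.0658). The AT1G19230 call was also lost without the filter (adjusted p = 0.0562) and without the limma trend (adjusted p = 0.0648), and that of AT3G52620 with 64 added (adjusted p = 0.0969). AT1G19230, the NADPH oxidase gene, differed by -1.11 ± 0.29 (adjusted p = 0.00983), a call lost without SND1XVE control replicate 2 (0.113) or VND7XVE control replicate 2 (0.137). AT3G52620 differed by -1.09 ± 0.29 (adjusted p = 0.0104), a call lost without SND1XVE control replicate 1 (0.0676).

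**Figure D5:**
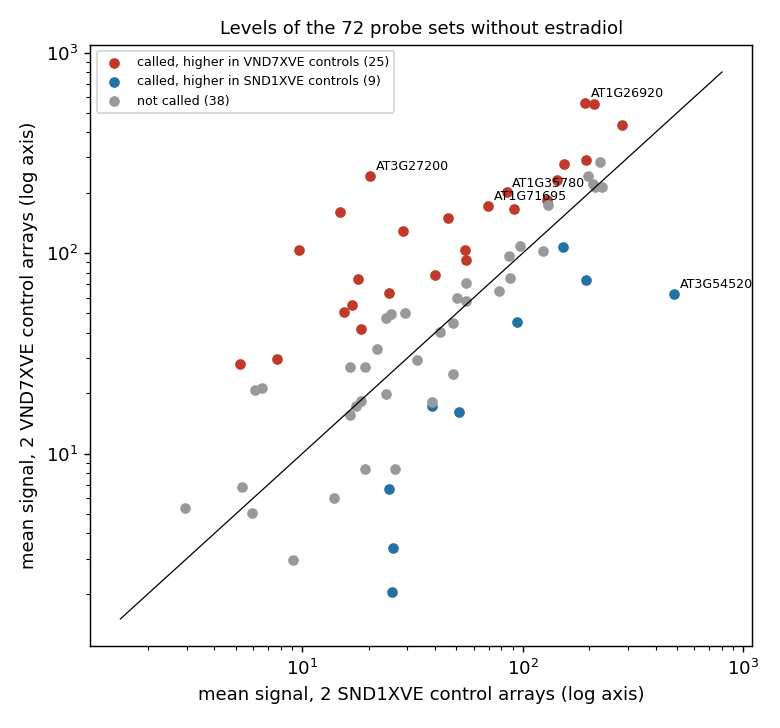
Mean control signals of the 72 probe sets on log axes, SND1XVE on the horizontal and VND7XVE on the vertical axis, with a line of equal signals. The 25 probe sets called higher in VND7XVE controls lie above the line, AT3G27200 farthest among the labelled genes, and the 9 called higher in SND1XVE controls lie below it.

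The 32 probe sets that do not name 1 gene included the largest effects in both lines. Their effects ran from 2.15 to 7.91 in VND7XVE, with a median of 3.91, and from 2.08 to 5.65 in SND1XVE, with a median of 3.17. The difference between the lines was called larger in VND7XVE for 9 of them and larger in SND1XVE for 2. Over all tested probe sets the shares were 1.97% and 1.09%. The rule used the same effects, so these counts are a description. The probe set with the largest VND7XVE effect had 5241.9 and 4833.1 in VND7XVE cells with estradiol, against 3.0 and 7.1 in controls, and 372.4 and 281.8 in SND1XVE cells with estradiol, against 4.3 and 7.5 in controls. The one with the largest SND1XVE effect had 683.3 and 646.2 with estradiol, against 31.0 and 5.4 in controls, in VND7XVE, and 2782.1 and 2510.6 with estradiol, against 52.2 and 25.3 in controls, in SND1XVE. The first was far brighter in VND7XVE and the second in SND1XVE, with no overlap between treatments in either case.

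All 40 named genes were found among the reference genes of Arabidopsis, 12 on chromosome 1, 5 on chromosome 2, 11 on chromosome 3, 5 on chromosome 4 and 7 on chromosome 5. No 2 of them were neighbours, the closest pair having 18 protein-coding genes between them. Their rises can be set beside other genes of secondary walls and xylem from lists of loci. Of 112 loci in 8 lists only 16 were named on the array and 14 were tested, so that the secondary wall cellulose synthases and nearly all wall transcription factors were not analysed here. Of the 9 tested genes outside the list of reference genes 2 fell in VND7XVE, HCT of lignin synthesis and IRX15-L of xylan synthesis, with no call for the others. In SND1XVE 2 rose and 1, HCT, fell, besides IRX15-L after quantile normalization (-0.54, limma, adjusted p = 0.0238) and median centring (-0.52, adjusted p = 0.0246). Over all tested probe sets 6.37% fell and 8.15% rose in VND7XVE, and 7.06% fell and 9.37% rose in SND1XVE. The genes that the rule set aside, 15 of which met its thresholds, are not among these 9. The 9 thus do not show how genes of wall synthesis in general responded. GAMMA-VPE, a vacuolar protease of plant cell death, had 3148.7 and 3076.9 in VND7XVE cells with estradiol, against 2761.2 and 2635.5 in controls, and 3473.4 and 3599.3 in SND1XVE cells with estradiol, against 2341.8 and 2245.1 in controls. It rose by 0.62 in SND1XVE (limma, adjusted p = 0.000167) and its effect in VND7XVE was 0.21 (adjusted p = 0.18). The other rise in SND1XVE, of the tubulin gene TUA6, was 0.45 (adjusted p = 0.0446), and its call was lost after quantile normalization (0.115) and without SND1XVE control replicate 1 (0.106) or 2 (0.144), SND1XVE estradiol replicate 1 (0.348), or VND7XVE estradiol replicate 1 (0.064) or 2 (0.0636). The 5 reference genes had medians of 0.05 in VND7XVE and -0.06 in SND1XVE and the nearest to the threshold was AT4G34270 in SND1XVE (-0.31, limma, adjusted p = 0.125).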

How the data were processed

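RNA of 8 protoplast samples, 2 per group, was measured on Affymetrix arrays. The authors' deposited values are signal intensities on a linear scale, for which the submitters' processing notes name GCOS, with its settings not given in the sources. The 2% trimmed mean of 500.0 or 500.1 on every array shows a common scaling. Groups and replicate numbers came from the sample titles, and 0 sample columns were left unused.

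Intensities were used as log2(signal + 16). Probe sets above the array's 40th percentile on at least 2 arrays (14768 of 22746) were fitted with 4 group means in limma 3.58.1 (R 4.3.3; lmFit, contrasts.fit, eBayes with an intensity trend; 4 residual degrees of freedom), testing on both sides with the Benjamini-Hochberg adjustment over all of them at 0.05. All 72 members passed the filter, which their estradiol signals alone ensure. The procedure was tested on simulated data. Tables and figures used Python 3.11.15, pandas 2.3.3 and matplotlib 3.10.9.

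Of the probe sets 13513 name 1 gene in the platform annotation, 503 several and 8730 are not listed; 13436 matched the NCBI reference genes (TAIR10.1), which were used for names and neighbours. Members, lists and roles were chosen with earlier results of these data known. The naming rule allowed every member with 1 gene, with values on each array for the largest, the most different between the lines, the brightest and dimmest in controls, and those with a described role. The members on the edge of the thresholds were also named. Other settings tried were pseudocounts of 1 and 64, centring arrays on the median, quantile normalization, the 60th percentile or no filter, limma without trend or robust, the replicate number as a block, the arrays of 1 line alone, and leaving out each array. Promoter sequences were not analysed here.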

Additional observations from a re-analysis of the deposited data

Results flagged for a closer look

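For 10 named genes the test of the difference between the lines passed the threshold (limma, adjusted p under 0.05), which is what brought them here. The difference, VND7XVE effect minus SND1XVE effect on the log2 scale, was 3.59 for AT1G13470, 2.43 for AT3G52830, 2.10 for the flavin monooxygenase family gene AT5G07800 and 2.07 for the cupredoxin gene AT3G27200. It was 1.30 for the kinase family gene AT4G10390, 1.27 for AT1G29240, 1.22 for the ubiquitin ligase gene PUB25 and 0.73 for the transporter gene AT4G34950. It was -0.85 for AT1G26920 and -1.04 for AT3G44450, whose product inhibits cryptochromes. The direction of both effects was fixed by how the genes were chosen, and 9 of the 10 calls were lost under at least 1 alternative. Groups of 2 arrays are too small to search for single samples that stand apart.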

How the results depend on the processing

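All 72 probe sets passed the threshold as rises in both lines under every alternative that tested them, and the filter at the 60th percentile tested 68. The number that met the rule was 40 with 64 added to signals, 250 with a floor of 1 for the effects and 25 with a floor of 3, and 70 to 76 when 1 array was left out. Calls larger in VND7XVE, 17 in the main setting, numbered 11 without the filter, 6 with a pseudocount of 1, 8 without the limma trend and 10 to 17 without single arrays. Calls larger in SND1XVE, 4 in the main setting, numbered 2 without the filter, 7 with 64 added, 1 without the trend and 1 to 5 without single arrays. Control levels called higher in SND1XVE, 9 in the main setting, numbered 4 without the filter, 4 with 64 added and 6 to 9 without single arrays, and those higher in VND7XVE numbered 22 to 27 without single arrays. With 64 added, the calls larger in VND7XVE numbered 24, against 17 in the main setting and 6 with a pseudocount of 1. The causes of these shifts were not tested. Of the 10 named differences between the lines 9 lost their call under at least 1 alternative and 9 other genes gained one, and of 19 named control differences 10 lost theirs and 6 others gained one. No called direction turned round. The alternatives for the control levels of the 5 marker genes were added after seeing the data and changed no call.

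Same-numbered arrays did not deviate together (r = 0.01 in both lines), so the replicate number was taken as a name. As a replicate block it gave 5 control levels higher in SND1XVE and 22 higher in VND7XVE, 16 and 4 differences, and 72 rises in each line. Median centring moved the median effect of all probe sets to -0.146 in VND7XVE and -0.083 in SND1XVE, with 1021 rises and 1938 falls in VND7XVE against 1204 and 940 as deposited, and 1089 and 1665 against 1384 and 1043 in SND1XVE. The promoter comparison was not run. Where control signals were dim, the size of an effect depended on the 16 added to every signal.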
